A study of Daphnia magna with 15 samples.

Results

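The 150 most abundant loci of the Daphnia magna neonate were taken from a table of FPKM, a measure of RNA abundance per unit of transcript length. The FPKM of all transcripts of a locus were summed, and the loci were ranked by the median of that sum over 15 libraries. Loci that span under 500 bp were left out, and these took 74.2% to 96.5% of the FPKM of a library. The members, selected on this median, are 150 of the 17838 loci of at least 500 bp, or 0.841% of them, and the table holds 18877 loci in all. Since the values of all 15 libraries chose the members, their level is a description and no finding. The table gives assembly identifiers and scaffold positions only, and a match to the reference table, of 28335 genes, found 0 of them, so no member can be given a gene name, a role or a sequence here.

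The animals were whole neonates of a laboratory strain, 48 to 72 h old, kept unfed for 24 h in groups of 20 to 25 in 25 mL of medium. Etoposide was given at 300 ng/L in 3 libraries, imatinib mesylate at 2000 ng/L in 3 and cisplatin at 10 ng/L in 3, and the unexposed sets named control A and control B had 3 libraries each. Etoposide traps topoisomerase II on DNA, imatinib inhibits tyrosine kinases and cisplatin crosslinks DNA. The labels tie no control set to a drug and leave it unsaid whether replicates came from separate cultures; the p-values therefore rest on a spread between libraries that may be technical.

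Daphnia is a planktonic crustacean, and a library of a whole animal mixes the RNA of all its tissues. In animals, the few most abundant messenger RNAs usually come from genes for ribosomal proteins and other parts of the translation machinery, for muscle and cytoskeleton, for energy metabolism, for the cuticle and for digestive enzymes. Which of these the 150 loci are is not given by the files. In RNA of whole animals, fewer cells of a type and less RNA per cell cannot be told apart.

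One library stood apart. In control A 1 the FPKM of 1375 loci was 0, where the other libraries had 71 to 289 such loci, although every member was above 0 in all 15. FPKM keep no read counts, so depth is unknown and no counting interval is given. Values without control A 1 are also given for the group shares, the spread and the range of the members. They are given too for the member medians and counts of single comparisons with control A. Other counts that involve control A include control A 1 unless said otherwise.

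The members held 22.6% ± 0.321 of the FPKM of loci of at least 500 bp with etoposide, 21.4% ± 0.557 with imatinib, 21.7% ± 0.153 with cisplatin, 26.1% ± 3.40 in control A and 21.7% ± 0.954 in control B (n = 3 each, ± SD). Single libraries gave 23.0%, 22.5% and 22.4% with etoposide, 21.3%, 22.0% and 20.9% with imatinib, and 21.9%, 21.6% and 21.7% with cisplatin. They gave 30.0%, 24.8% and 23.6% in control A and 22.7%, 21.6% and 20.8% in control B. All 3 control A libraries thus lay above the other 12, with control A 1 far above, while the etoposide libraries lay above those of imatinib and cisplatin. Control A 2 and 3 alone averaged 24.2% for the same 150 members. The summed FPKM of the members was 276297, 190062 and 163151 in control A, against 146700 to 174955 in control B. The other loci of at least 500 bp summed to 645401, 576076 and 528461 in control A, against 553696 to 597155 in control B, so control A 1 was the highest in both sums and control A 3 fell within control B for the members and below it for the rest.

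**Figure D1:**
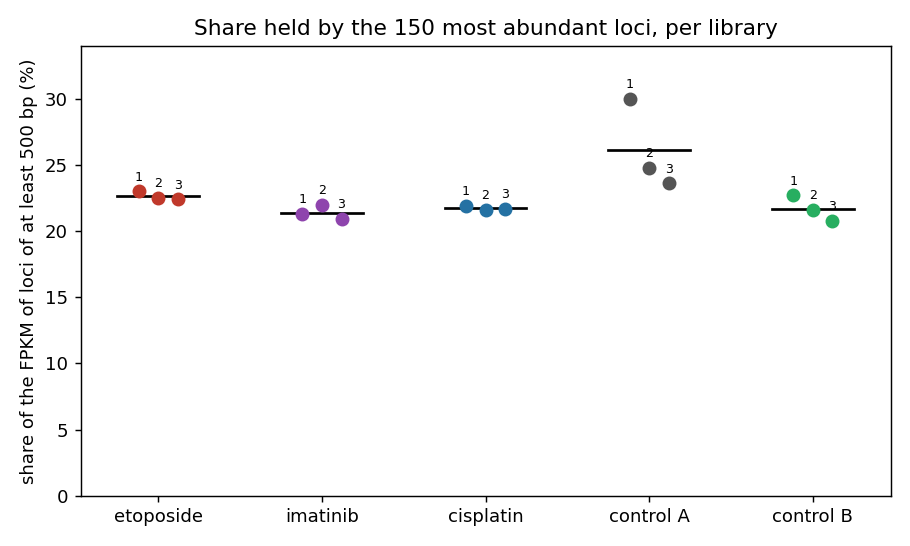
Share of the FPKM of loci of at least 500 bp held by the 150 members (vertical axis, percent) in each library, with the replicate number above each point and a line at the mean of each group. The 3 control A libraries, at 23.6% to 30.0%, lie above the other 12, at 20.8% to 23.0%.

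No single locus dominated. The locus first in rank held 0.449% to 0.693% of the FPKM of loci of at least 500 bp in a library, the first 10 held 2.97% to 4.39% and the first 50 held 9.64% to 13.8%. The next 150 loci in rank held 9.07% to 12.0%. The medians of the members ran from 655.8 to 3557 FPKM with 934.5 FPKM in the middle, against a median of 11.96 FPKM over all loci of at least 500 bp.

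XLOC_010493 (scaffold01841, 1813 to 5947), first in rank, had 3192, 3449 and 3659 FPKM with etoposide, 3087, 3675 and 3728 with imatinib, 3331, 3557 and 3400 with cisplatin, 6384, 4984 and 4192 in control A and 3603, 3207 and 3168 in control B. Every control A library was above the other 12, but the difference from control B did not pass (log2 0.62, SE 0.216; limma, adjusted p = 0.0551). XLOC_012387 (scaffold02078, 2 to 2072) averaged 2810 ± 138 FPKM with etoposide, 2743 ± 202 with imatinib, 3528 ± 37.3 with cisplatin, 4825 ± 2010 in control A and 3597 ± 414 in control B (n = 3 each, ± SD).
XLOC_008510 (scaffold01585, 32298 to 44538) averaged 2380 ± 437 FPKM with etoposide, 2981 ± 155 with imatinib, 3401 ± 91.4 with cisplatin, 3660 ± 852 in control A and 3280 ± 230 in control B (n = 3 each, ± SD). No difference of XLOC_012387 or XLOC_008510 passed. XLOC_002182 (scaffold00802, 21388 to 22240) had the group means nearest each other among the 5 highest. It averaged 2668 ± 313 FPKM with etoposide, 2397 ± 224 with imatinib, 2540 ± 71.9 with cisplatin, 2687 ± 924 in control A and 2482 ± 158 in control B (n = 3 each, ± SD). Control A 1 was its highest library and control A 2 its lowest, and no difference of it passed in the 8 comparisons made. XLOC_008509, rank 4, is described with etoposide.
At the other end, XLOC_001205 and XLOC_016277 had medians of 655.9 and 655.8 FPKM just inside the list, and XLOC_011954 and XLOC_000135 had 654.8 and 654.6 FPKM just outside it.

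Membership varied with the library. A single library's own 150 highest loci of at least 500 bp held 102 to 138 of the members. Of the 150, 60 were among the 150 highest in all 15 libraries and 117 among the 300 highest in all 15. The highest library was under 2-fold the lowest for 43 members and over 10-fold for 22, with a median of 2.34-fold and a range of 1.46-fold to 1060-fold. Over the 14 libraries other than control A 1, the counts were 88 under 2-fold and 21 over 10-fold, with a median of 1.87-fold. A control A library was the highest of 15 for 119 members, control A 1 alone for 107. An imatinib library was the lowest of 15 for 70 members, with 30 of these in imatinib 1 and 38 in imatinib 3. The steadiest member within groups was XLOC_011121 (scaffold01915, 53854 to 55919), with 843, 795 and 972 FPKM with etoposide, 653, 757 and 719 with imatinib, 722, 725 and 741 with cisplatin, 886, 915 and 918 in control A and 745, 754 and 725 in control B.
XLOC_009090 (scaffold01649, 31535 to 40892) was the next steadiest, with a median SD within groups of 0.0446 on the log2(FPKM + 1) scale against 0.0292 for XLOC_011121. The widest were XLOC_001088 and XLOC_001705, with 1.25 and 1.22.

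**Figure D2:**
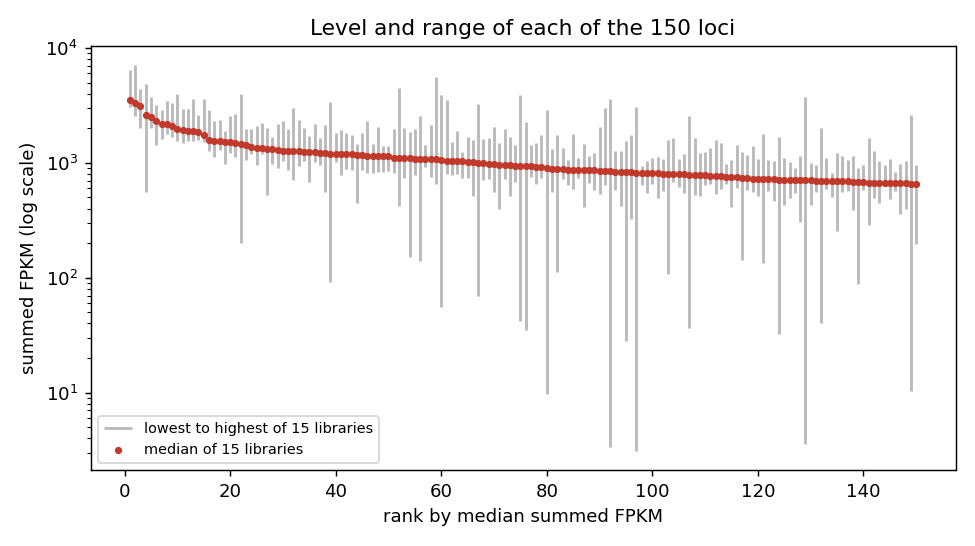
Summed FPKM (vertical axis, log scale) of the 150 members by rank (horizontal axis), with the median of 15 libraries as a point and a line from the lowest to the highest library. Medians run from 3557 down to 655.8 FPKM, and 22 lines span over 10-fold.

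The spread within groups is given as a description, with no test. The median SD of the members on the log2(FPKM + 1) scale was 0.163 with etoposide, 0.129 with imatinib, 0.0574 with cisplatin, 0.38 in control A and 0.146 in control B. Tested loci of at least 500 bp had 0.278, 0.218, 0.145, 0.369 and 0.154 in the same order of groups, and the next 150 loci had 0.254, 0.185, 0.114, 0.387 and 0.142. The members thus had the lowest median of these sets in the 3 drug groups, while in control B the next 150 loci had it. Control A 2 and 3 alone gave 0.227 for the members, 0.209 for the next 150 loci and 0.241 for tested loci of at least 500 bp.

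The members had a shorter median span than loci at large, and some lay side by side. The members were chosen by FPKM, a measure per unit of transcript length. Whether their shorter span follows from that choice was not tested. Their median span was 1644 bp, against 1983 bp for the next 150 loci and 2233 bp for all loci of at least 500 bp, and 41 members (27.3%) spanned under 1000 bp, against 15.6% of all these loci. A single transcript was listed for 97 members (64.7%), against 62.3% of all loci of at least 500 bp. For 3 members (2.0%) 10 transcripts or more were listed, against 0.762%. The interval of 45 members (30.0%) was also listed for another locus, against 32.3%, so the span of those members may be that of more than 1 gene. The 150 members lay on 122 scaffolds, and 30 of them were next to another member, against 14 of the next 150 loci. These 30 formed 14 runs, and 3 members was the longest run. Whether such neighbours are separate genes or pieces of 1 gene is not given by the files.

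Neighbouring members did not always behave alike. The 2 runs given here were chosen after their values were seen. In the first the members largely rose and fell together, and in the second they did not. XLOC_006014, XLOC_006015 and XLOC_006016 lie on scaffold01251 from 40551 to 45720. XLOC_006015, in the middle, had 783, 410 and 474 FPKM with etoposide, 430, 868 and 780 with imatinib, 1090, 1061 and 1185 with cisplatin, 862, 1013 and 427 in control A and 1453, 960 and 1256 in control B. XLOC_006016 had 1168, 559 and 605 FPKM with etoposide, 575, 1159 and 1059 with imatinib, 1662, 1589 and 1845 with cisplatin, 1213, 1319 and 602 in control A and 2140, 1514 and 2000 in control B. For XLOC_006016 every cisplatin and control B library was above the 9 others, and the values of XLOC_006014, given with the control sets, are ordered in the same way.
XLOC_017319 and XLOC_017320 on scaffold03114 lie 176 bp apart between 7527 and 12593 and differed in where control A lay. XLOC_017319 had 1084, 1203 and 965 FPKM with etoposide, 1304, 1235 and 1201 with imatinib, 1342, 1431 and 1411 with cisplatin, 1664, 2100 and 1792 in control A and 1394, 1308 and 1400 in control B. XLOC_017320 had 1599, 1334 and 2019 FPKM with etoposide, 1409, 1754 and 1672 with imatinib, 1185, 1232 and 1214 with cisplatin, 690, 528 and 1492 in control A and 1105, 1327 and 1275 in control B. Control A was thus the highest group for XLOC_017319 and held the lowest libraries for XLOC_017320.

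All 150 members passed the filter of a mean of at least 1 FPKM and were tested with limma on log2(FPKM + 1), in 1 fit of 18098 loci and 15 libraries. A locus was called where its p, adjusted by Benjamini-Hochberg over all 18098, was under 0.05. Of the 150, 86 were called in at least 1 of 8 comparisons and 64 in none. The share of all loci called in at least 1 was not computed, so no excess of the members is read from this. Comparisons that share a control set are not independent of each other. Ranking by the median of 15 libraries admits a locus near 0 only in control B and cisplatin, and leaves out one near 0 in all other groups. Directions between those 2 sides are therefore not set beside all loci on equal terms. Counts with a library left out, another scaling or fewer groups fitted were made for the members only. Whether all loci moved alike under these settings was not tested.

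Members called with etoposide against control A were nearly all lower. Of 150, 19 were called (12.7%), 1 higher and 18 lower, where 15.5% of all loci tested were called, 7.63% higher and 7.82% lower. The median log2 difference of the members was -0.29, against 0.02 over all loci tested, and 111 members were below 0. That median was -0.13 without control A 1, with 91 members below 0. With all 15 libraries, the next 150 loci in rank had 19 called, 2 higher and 17 lower, and a median of -0.07. Against control B, 27 members were called (18.0%), 16 higher and 11 lower, where 28.7% of all loci were called, 7.28% higher and 21.4% lower. Median centring gave 21 higher and 2 lower. The median of the members was 0.00 there on the log2 scale, where that of all loci tested was -0.18. Its direction turned with the scaling, to 0.26 with 119 members above 0 after median centring and to -0.12 with 106 below 0 after quantile normalization. The libraries of etoposide and control A did not overlap for 49 members, 0 higher and 49 lower, where 25.3% of all loci did not, 12.8% higher and 12.5% lower. Leaving out control A 1 gave 19 higher and 49 lower. Groups of fewer libraries overlap less readily, and the share of all loci was not computed for this setting. For etoposide and control B this held for 59 members, 33 higher and 26 lower, where it held for 48.6% of all loci, 13.7% higher and 34.9% lower.
The count against control A was 9 without etoposide 1 and 0 without etoposide 3, was 0 without control A 2 and 54 without control A 3. It was 15 without control A 1, and 0 when etoposide and control A were fitted alone, with 8 members at unadjusted p below 0.05 (limma). Unadjusted p was below 0.05 for 36 members without etoposide 3 and 44 without control A 2. Against control B the count was 15 without etoposide 3 and 16 without control B 3.

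With etoposide, 4 members were called against both control sets, all lower, or 2.67% of 150, where 6.75% of all loci were called, 1.2% higher and 5.54% lower. XLOC_008509 (scaffold01585, 21091 to 31909), rank 4 and directly before XLOC_008510, had 1087, 1371 and 555 FPKM with etoposide, against 2041, 4828 and 3581 in control A and 2621, 2748 and 3286 in control B. All 3 etoposide libraries lay below all 6 controls. It fell against both, with log2 differences of -1.8 from control A and -1.61 from control B (SE 0.359 each; limma, adjusted p = 0.0179 and 0.00653).
In imatinib libraries XLOC_008509 had 2475, 1690 and 1688 FPKM, with a mean between those of etoposide and the control sets. Imatinib 1 lay above control A 1. The locus did not pass with imatinib against either set (limma, adjusted p = 0.184 and 0.261). Etoposide against imatinib did not pass either (log2 -1.03, 95% interval -1.81 to -0.25, limma, adjusted p = 0.301). Its neighbour XLOC_008510 was not called with etoposide (log2 -0.61 and -0.48 against control A and control B; limma, adjusted p = 0.0794 and 0.132).
XLOC_003218 (scaffold00933, 7790 to 13673) had 450, 463 and 399 FPKM with etoposide, against 666, 1029 and 733 in control A and 707, 676 and 709 in control B. It fell, with log2 differences of -0.86 from control A and -0.67 from control B (SE 0.157 each; limma, adjusted p = 0.0162 and 0.00794). With imatinib it had 544, 480 and 511 FPKM, also below every control library; it fell against control A (log2 -0.64; limma, adjusted p = 0.0299) and was not called against control B (log2 -0.45; limma, adjusted p = 0.0571). XLOC_004826 and XLOC_012700, named because the count is small, were 1.57-fold and 1.42-fold lower than control A and 1.41-fold and 1.38-fold lower than control B.
Higher against both sets, 0 members passed (limma). XLOC_005130, the nearest by p, had 714, 879 and 1016 FPKM with etoposide, 809, 759 and 601 in control A and 555, 502 and 428 in control B (limma, adjusted p = 0.335 and 0.00695).
XLOC_008509 and XLOC_003218 both lost the call against control A without etoposide 3 (limma, adjusted p = 0.0752 and 0.0670), without control A 2 (0.0672 and 0.0575) and when etoposide and both control sets were fitted alone (0.102 for each), and XLOC_003218 lost it against control B after median centring (0.0749). In place of 4 members called against both sets, there were 0 without etoposide 3 or control A 2. There were 3 without control A 1, 8 without control A 3 and 2 without any 1 control B library.

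Members called with imatinib against control A were nearly all lower. There 50 were called (33.3%), 1 higher and 49 lower, where 9.03% of all loci were called, 4.14% higher and 4.9% lower. The median log2 difference was -0.48 over the members and 0.01 over all loci tested, and 119 members were below 0. Without control A 1 the medians were -0.28 over the members and 0.00 over all loci, with 100 members below 0. The median fold of those that fell was 1.67. Without control A 1, 43 members were called. With all 15 libraries, the next 150 loci in rank had 38 called, 2 higher and 36 lower, and a median of -0.19. The libraries did not overlap for 73 members, 1 higher and 72 lower, where 24.4% of all loci did not, 11.8% higher and 12.6% lower. Leaving out control A 1 gave 16 higher and 73 lower, again with no share of all loci computed for that setting.
Against control B, 33 members were called (22.0%), 13 higher and 20 lower, where 23.2% of all loci were called, 6.29% higher and 16.9% lower. The median of -0.22 over the members lay beside -0.21 over all loci tested, and after median centring it was 0.01 with 78 members above 0. Median centring gave 18 higher and 4 lower. The libraries of imatinib and control B did not overlap for 98 members, 29 higher and 69 lower, where 49.8% of all loci did not, 13.1% higher and 36.7% lower.
Fitting imatinib with control A alone gave 0 calls in place of 50, with 44 members at unadjusted p below 0.05 (limma). Leaving out imatinib 1 gave 32, imatinib 2 gave 3, imatinib 3 gave 0 (70 members at unadjusted p below 0.05) and control A 2 gave 9. Against control B, 18 were called without imatinib 3, 18 without control B 1, 20 without control B 2, 18 without control B 3 and 51 with imatinib and control B fitted alone.

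With imatinib, 12 members were called against both control sets, all lower (8.00%), where 3.19% of all loci were called, 0.685% higher and 2.5% lower. The 3 imatinib libraries lay below all 6 control libraries for 51 members and above them for 1, where 12.4% of all loci tested lay outside, 3.86% above and 8.54% below. For etoposide, 11 members lay below and 0 above, where 12.7% of all loci lay outside, 3.71% above and 8.97% below. Cisplatin had 0 members outside, where 2.36% of all loci were, 1.71% above and 0.652% below.
XLOC_009917 (scaffold01773, 37626 to 39816) had 496, 437 and 391 FPKM with imatinib, against 1141, 1027 and 801 in control A and 767, 665 and 631 in control B. It fell, with log2 differences of -1.15 from control A and -0.64 from control B (SE 0.154 each; limma, adjusted p = 0.00906 and 0.0115). With etoposide it had 700, 723 and 628 FPKM, within or just below the control B range, and the difference between etoposide and imatinib did not pass (log2 0.63 for etoposide against imatinib; limma, adjusted p = 0.195). XLOC_009917 also fell against control A with etoposide (log2 -0.52; limma, adjusted p = 0.0413) and with cisplatin (log2 -0.52; limma, adjusted p = 0.0336), and was higher in control A than in control B (log2 0.51; limma, adjusted p = 0.0323).
XLOC_000463 (scaffold00166, 17855 to 18873) had 519, 461 and 443 FPKM with imatinib, against 932, 1006 and 873 in control A and 789, 674 and 675 in control B, and fell, with log2 differences of -0.98 from control A and -0.59 from control B (SE 0.169 each; limma, adjusted p = 0.0125 and 0.0266). Etoposide libraries had 534, 706 and 426 FPKM, and 1 of them lay within the control B range. With etoposide XLOC_000463 fell against control A (log2 -0.78; limma, adjusted p = 0.0204) and was not called against control B (log2 -0.39; limma, adjusted p = 0.109).
Higher against both sets, 0 members passed (limma). XLOC_010537, the nearest by p, averaged 1048 ± 47.3 FPKM with imatinib, 691 ± 98.4 in control A and 816 ± 101 in control B (n = 3 each, ± SD; limma, adjusted p = 0.0341 and 0.107).
The calls of single members were not firm. XLOC_009917 lost a call without imatinib 3 (limma, adjusted p = 0.0501 and 0.0517), without control B 1 (0.0503) and after median centring (0.139). For XLOC_000463 the call against control A ended when imatinib 2 (limma, adjusted p = 0.0573) or imatinib 3 (0.0546) was left out, and against control B under 3 scalings (0.0536 to 0.183) and without imatinib 2, imatinib 3 or any control B library (0.0557 to 0.0950). The call of XLOC_010537 against control A ended without any imatinib library, without control A 2 or 3, after median centring and with imatinib and both control sets fitted alone (limma, adjusted p from 0.0545 to 0.108), and median centring gave it a call against control B (0.0460). Of calls against both sets, in place of 12, there were 6 without imatinib 1, 2 without imatinib 2 and 0 without imatinib 3. There were 24 without control A 1, 8 without control A 2 and 25 without control A 3. Leaving out control B 1 gave 0, and control B 2 or control B 3 gave 4 each, and median centring gave 0.

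**Figure D3:**
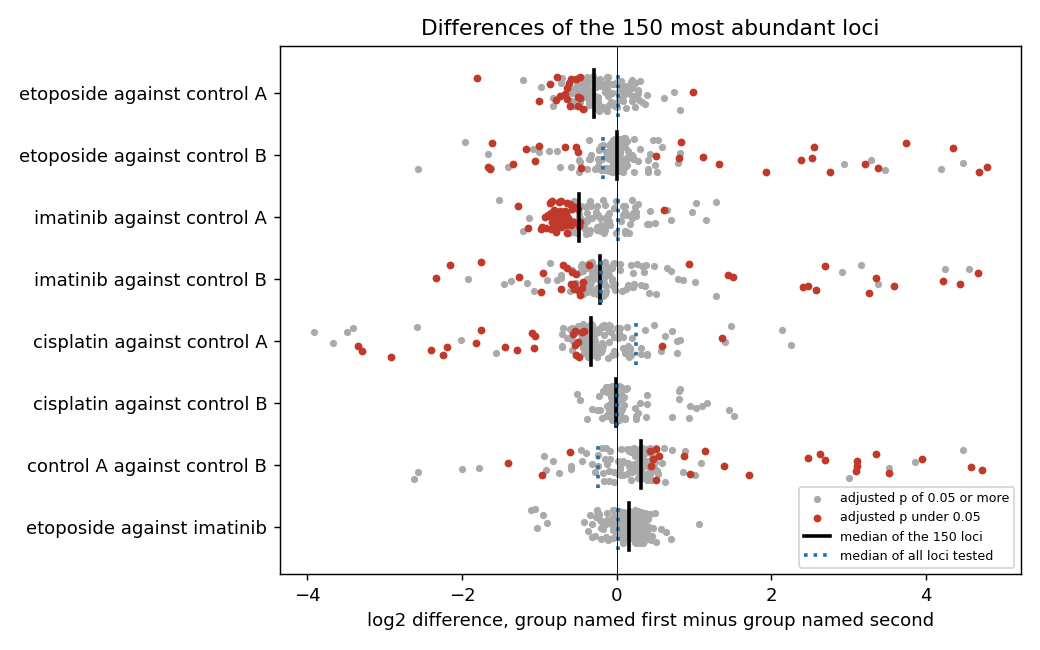
Log2 difference (horizontal axis, on the log2(FPKM + 1) scale) of each of the 150 members in the 8 comparisons, with called members in red, the median of the members as a black line and the median of all loci tested as a dotted line. Against control A the members lie left of all loci, by medians of -0.29 with etoposide, -0.48 with imatinib and -0.34 with cisplatin, while cisplatin against control B is centred on 0. Without control A 1 the 3 medians are -0.13, -0.28 and -0.16. Not drawn, the next 150 loci in rank have medians of -0.07, -0.19 and -0.32 with all 15 libraries.

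Members with cisplatin were close to control B and mostly below control A. Against control B, 0 of 150 were called and 0 had an unadjusted p under 0.05 (limma), where 0% of all loci were called and 223 had an unadjusted p under 0.05. Fitted alone, these 6 libraries gave 0 calls and 1 member at unadjusted p below 0.05 (limma). The libraries did not overlap for 3 members, 2 higher and 1 lower, where 8.17% of all loci did not, 4.11% higher and 4.07% lower. For 123 members (82.0%) the 95% interval of the difference stayed within 2-fold, against 74.5% of all loci tested, so larger differences are not excluded for the other members. The median difference was 0.00 on the log2 scale, with quartiles of -0.05 and 0.04.
With the replicate number as a block in a fit of these 6 libraries, chosen after seeing the data, 0 members were called (limma, smallest adjusted p = 0.755). Of the members 13 had an unadjusted p under 0.05, where 962 of the 18098 loci tested did (limma), and 134 members had an interval within 2-fold. Each cisplatin library was above the same-numbered control B library for 20 members and below it for 6, where 12.9% of all loci tested were above in all 3 pairs and 12.0% below. XLOC_002968 averaged 919 ± 67.8 FPKM with cisplatin, 1309 ± 189 in control A and 987 ± 75.9 in control B (n = 3 each, ± SD; limma, adjusted p = 0.0292 and 1). XLOC_012052, nearest by p among members above both sets, averaged 1369 ± 270 FPKM with cisplatin, 1100 ± 519 in control A and 1298 ± 228 in control B (limma, adjusted p = 0.348 and 1). The call of XLOC_002968 against control A ended when control A 1, control A 2 or a cisplatin library was left out, under 2 scalings and with cisplatin and both control sets fitted alone (limma, adjusted p from 0.0527 to 0.289). Without control A 1, XLOC_012052 was called higher than control A (log2 0.76; limma, adjusted p = 0.0459).
Against control A, 23 members were called (15.3%), 2 higher and 21 lower, where 21.3% of all loci were called, 16.1% higher and 5.16% lower. The median was -0.34 over the members and 0.25 over all loci tested, and without control A 1 the medians were -0.16 and 0.22, with 101 members below 0. With all 15 libraries, the next 150 loci in rank had 40 called, 7 higher and 33 lower, and a median of -0.32. The member median was -0.11, with 59 members above 0, after quantile normalization and -0.58 after median centring. The libraries did not overlap for 70 members, 5 higher and 65 lower, where 38.8% of all loci did not, 29.2% higher and 9.61% lower. Leaving out control A 1 gave 23 higher and 67 lower, with no share of all loci computed for that setting. In place of 23 calls there were 14 without control A 1, 59 without control A 3, 10 without cisplatin 1, 12 without cisplatin 2 and 4 without cisplatin 3. Quantile normalization gave 13, median centring 45 and these 6 libraries alone 2. Against both control sets 0 members were called with cisplatin (limma), as were 0% of all loci.

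Both control sets were unexposed, and their comparison shows how far members differ without a drug. Of 150, 25 were called (16.7%), 22 higher and 3 lower in control A, where 23.4% of all loci were called, 6.49% higher and 16.9% lower. The median log2 difference was 0.32 over the members and -0.24 over all loci tested, and 118 members were above 0 where 31.3% of all loci were. Without control A 1 the medians were 0.16 and -0.21, with 100 members above 0. The member median was 0.14, with 99 above 0, after quantile normalization and 0.55, with 130 above 0, after median centring. Quantile normalization gave 15 members higher and 5 lower, and median centring 51 and 1. The libraries did not overlap for 53 members, 48 higher and 5 lower, where 38.5% of all loci did not, 10.7% higher and 27.8% lower. Leaving out control A 1 gave 50 higher and 23 lower, where the share of all loci was not computed. For the next 150 loci the median was 0.29, with 43 called higher and 9 lower, in the same direction. These loci were ranked by the same median as the members. That median admits loci low only in control B and cisplatin more readily than loci low in all other groups. The direction of neither set can therefore be set beside all loci on equal terms, and how much of it follows from the selection was not tested. In place of 25 calls there were 15 without control A 1, 11 of them higher, and 58 without control A 3. There were 16 without control B 1, 12 without control B 2, 11 without control B 3 and 8 with both control sets fitted alone.

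Some members differed between the control sets by over 10-fold, and most by far less. XLOC_017155 (scaffold03051, 34649 to 40340) had 2910, 634 and 1372 FPKM in control A, against 175, 96.1 and 9.75 in control B, a log2 difference of 4.58 (SE 1.24; limma, adjusted p = 0.0218). Etoposide libraries had 910, 2070 and 2054 FPKM and imatinib libraries 1626, 1374 and 1384, while cisplatin libraries had 377, 404 and 12.7. The control B and cisplatin libraries thus lay below all others. XLOC_001088 (scaffold00423, 66 to 592) had 3746, 1054 and 708 FPKM in control A, against 258, 76.7 and 6.41 in control B, a log2 difference of 4.73 (SE 1.59; limma, adjusted p = 0.0492). In cisplatin libraries XLOC_001088 had 275, 637 and 3.59 FPKM.
XLOC_017155 lost the call without control A 1 or control B 3 (limma, adjusted p = 0.0586 and 0.0893) and with both control sets fitted alone (0.0642). XLOC_001088 lost it under 10 alternatives, with adjusted p from 0.0501 to 0.187 (limma). In the other direction, XLOC_006014 had 491, 673 and 408 FPKM in control A, against 1630, 1153 and 1354 in control B, a log2 difference of -1.41 (SE 0.310; limma, adjusted p = 0.00936), and it kept the call under every alternative tried. With etoposide it had 712, 337 and 330 FPKM, with imatinib 285, 474 and 493, and with cisplatin 1339, 1210 and 1403. XLOC_003787 (scaffold00997, 14832 to 19916) had 939, 728 and 578 FPKM in control A, against 1591, 1426 and 1314 in control B (log2 -0.97, SE 0.288; limma, adjusted p = 0.0313). The call ended when control A 2, control A 3 or a control B library was left out or both control sets were fitted alone (limma, adjusted p between 0.0621 and 0.0899), and after median centring (0.120).

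Across the list, control A, etoposide and imatinib each lay above control B without overlap for 21 members, and each below it for 4, where 4.89% of all loci tested did so above and 14.4% below. Of the 22 members that ranged over 10-fold, 14 were among the 21 and 0 among the 4. Ranking by the median of 15 libraries admits a locus near 0 in control B and cisplatin alone. A locus near 0 in control A, etoposide and imatinib has a median near 0 and is left out. These counts, and the counts of low pairs that follow, therefore depend on the selection, and no excess of the members is read from them. Control B 3 and cisplatin 3 were the lowest pair of the 15 libraries for 18 members, where they were for 2.6% of all loci tested. In 5 members, XLOC_017155, XLOC_001705, XLOC_001097, XLOC_001088 and XLOC_001205, each of this pair was over 5-fold below the other control B and cisplatin libraries, where 0.575% of all loci were so. XLOC_001097 (scaffold00423, 4507 to 5124) had 3.59 FPKM in cisplatin 3 and 3.11 in control B 3, against 290 and 631 in the other cisplatin libraries and 239 and 159 in the other control B libraries. It lies on the scaffold of XLOC_001088. These 5 members carry a shared replicate number in their low libraries, and whether the number marks a shared culture, day or preparation is not given.
A few members ran the other way within control A. XLOC_008874 (scaffold01628, 12704 to 13764) had 40.7, 1307 and 262 FPKM in control A, against 2023, 875 and 1865 in control B, and XLOC_006207 (scaffold01276, 16328 to 20746) had 32.3, 1037 and 330 in control A, against 1691, 841 and 1693 in control B. In both, control A 1 was the lowest of the 15 libraries, the reverse of the 107 members for which it was the highest. Their values were known when these 2 were picked.

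**Figure D4:**
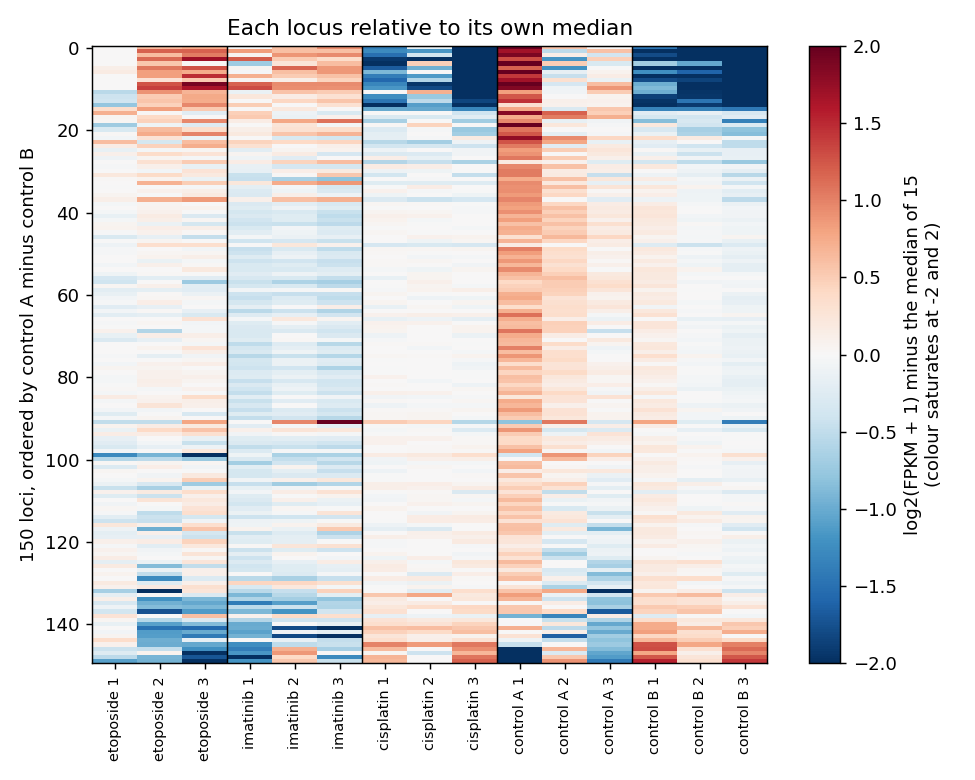
Each of the 150 members (rows, ordered by control A minus control B) in each library (columns), as log2(FPKM + 1) minus the member's own median, with colours saturating at -2 and 2. A block at the top is low in cisplatin and control B libraries, lowest in cisplatin 3 and control B 3, and the control A 1 column is red for most rows.

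Etoposide and imatinib, at 300 and 2000 ng/L, were compared directly. Of 150 members 0 were called (limma, smallest adjusted p = 0.195), as were 0% of all loci tested. An unadjusted p under 0.05 was found for 24 members and for 2289 of the 18098 loci tested (limma). The median log2 difference was 0.16 over the members and 0.02 over all loci tested, with 111 members above 0. The 95% interval lay within 2-fold for 79.3% of the members, against 64.8% of all loci tested. The etoposide libraries lay above all imatinib libraries for 55 members and below them for 5, where 18.0% of all loci did not overlap, 10.0% above and 7.96% below. The concentrations differ, so this is no comparison at a matched dose.

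**Figure D5:**
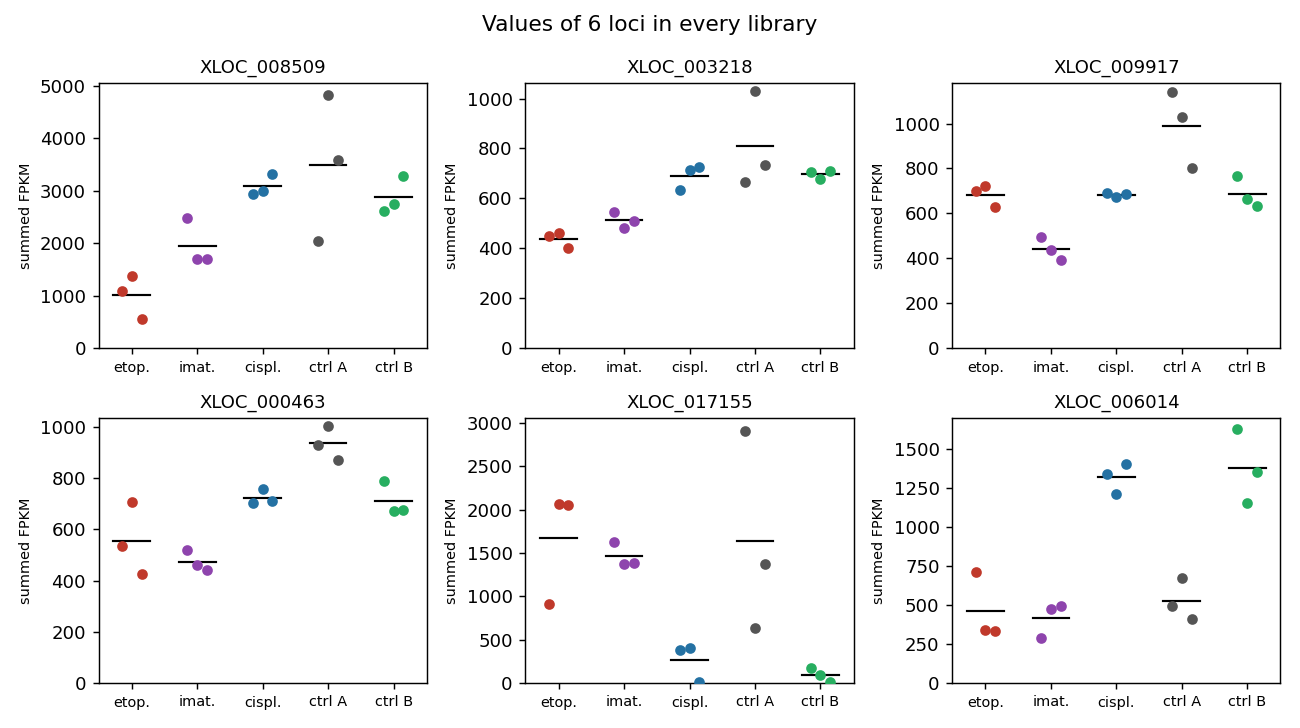
Summed FPKM (vertical axes, from 0) of 6 members in every library, with a line at each group mean; etop., imat., cispl. and ctrl stand for etoposide, imatinib, cisplatin and control. XLOC_008509 and XLOC_003218 have the lowest group mean with etoposide, XLOC_009917 and XLOC_000463 with imatinib, and XLOC_017155 and XLOC_006014 separate cisplatin and control B from the other groups.

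Of the 53 members with more than 1 transcript, 44 had the same leading transcript in all 15 libraries and 9 did not. The leading transcript held at least 90% of the locus at the median in 25 of the 53 and under 50% in 6. The imatinib libraries lay outside all 6 controls in this share for 7 of the 53 members, where 4.94% of 6533 loci of at least 500 bp with more than 1 transcript did. Etoposide lay outside for 1, where 5.25% of loci did, and cisplatin for 1, where 2.30% did. No p is given for these shares, and the loci named for them were chosen after their values were seen.
XLOC_013245, with 22 transcripts, was the member outside the controls with etoposide and 1 of the 7 with imatinib. Its leading transcript held 52.7%, 51.4% and 50.8% of the locus with etoposide and 51.6%, 50.2% and 52.0% with imatinib. It held 58.4%, 59.4% and 58.6% with cisplatin, 58.9%, 63.3% and 55.4% in control A and 60.8%, 58.0% and 58.9% in control B. The 6 etoposide and imatinib libraries thus lay below the 9 others, by a few percentage points. XLOC_012026 gave its leading transcript 43.7%, 46.0% and 39.7% with imatinib, against 58.6%, 54.1% and 49.5% in control A and 53.6%, 50.8% and 51.7% in control B. With etoposide the share was 55.4%, 54.3% and 52.7%.
The total of XLOC_011121, steady within groups, hid shifts between its transcripts. With imatinib its leading transcript held 53.8%, 55.9% and 55.3%, above every control library, of which the highest had 52.3%. Single libraries of other groups differed more. Its leading transcript held 0.133%, 47.8% and 47.4% in control A and 25.4% in etoposide 1, against 37.1% to 65.8% in the other 11 libraries. In XLOC_001793 the leading transcript held 20.1% in cisplatin 3 and 16.7% in control B 3, against 78.2% and 78.9% in the other cisplatin libraries and 68.3% and 60.6% in the other control B libraries.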

How the data were processed

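RNA of whole Daphnia magna neonates was measured in 15 libraries, each from 320 ng of total RNA by a stranded mRNA kit, per the labels' protocols. The values are FPKM computed by the authors, deposited as 1 table with a row for each assembled transcript. The submitters' processing notes list Cufflinks 2.2.1 and Cuffdiff, TopHat2 2.0 and Bowtie2 2.1, Trim Galore, and CASAVA 1.8.0, with no settings. No source used here gives the genome build or how libraries were scaled, and positions are those of the deposited table. The reference table is of another assembly and gave no names.

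FPKM were summed per locus, and span is end minus start. A mean of 1 FPKM or more was asked of a locus, which left 18098. Differences were tested on log2(FPKM + 1) by limma 3.58.1 (R 4.3.3), with 5 group means, 1 spread shared by all groups, its trend option and Benjamini-Hochberg adjustment at 0.05; tables used Python 3.11.15. Fold changes on this scale understate the change of low loci. Each drug was set against each control set, and called against both where both passed in 1 direction. Alternatives were another pseudocount, no filter, 3 other scalings, fits of the groups compared alone, a replicate block and each library left out in turn. Members and lists were chosen with earlier results of these data known. Named loci were the 5 highest, those at the threshold, the steadiest and widest, and the largest rise and fall (up to 2 each) among called members for each drug against both sets and for control A against control B, or the nearest by p where none was called; others are marked as picked with their values known. Cisplatin and control B libraries of the same number deviated together from their group means, with correlations across loci of 0.244, 0.215 and 0.505. All are over 0.1, so these numbers were taken to pair the libraries, on the strength of the data alone. Values of like size occurred where no pairing was taken. Imatinib with control B gave -0.384, -0.289 and -0.366, and etoposide with imatinib gave 0.351 for replicate 3.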

Additional observations from a re-analysis of the deposited data

How the results depend on the processing

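All counts here are of members, with no share of all loci under the same setting. The pseudocount of 0.1 and dropping the filter kept every count of called members within 1.5 times. Median centring gave 10 called members for etoposide and 32 for imatinib against control A, 45 for cisplatin against control A, 52 for control A against control B, and 1 for etoposide and 0 for imatinib against both sets. Scaling libraries to 1 sum over loci of at least 500 bp gave 11 for etoposide against control A and 2 against both sets. Quantile normalization gave 13 for cisplatin against control A. Fits of the groups compared alone, with fewer libraries to estimate the spread, gave 0, 0 and 2 for etoposide, imatinib and cisplatin against control A, 51 for imatinib against control B, 8 for control A against control B, and 0 and 2 for etoposide and imatinib against both sets. In the fit of 15 libraries imatinib had the most called members against control A of the 3 drugs, but without imatinib 2 or 3 it had fewer than both others had in that fit, and cisplatin had the most under median centring and in these fits. Unadjusted p under 0.05 against both sets was left for 4 members with etoposide and 18 with imatinib (limma).

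Leaving out 1 library at a time gave 0 to 54 called members for etoposide against control A, 15 to 31 against control B and 0 to 8 against both sets. The ranges for imatinib were 0 to 71, 18 to 24 and 0 to 25, and those for cisplatin 4 to 59 against control A and 0 to 0 against control B and against both. Control A against control B ranged over 11 to 58 and etoposide against imatinib over 0 to 0. The replicate block gave 16 and 29 called members for etoposide against control A and control B, 40 and 29 for imatinib, 20 and 0 for cisplatin, and 23 for control A against control B, so it moved no count by over 1.5 times; its numbers are taken to pair cisplatin with control B only. With the 105 members whose interval is their own, chosen after seeing the data, the counts were 15 and 20 for etoposide, 36 and 22 for imatinib, 18 and 0 for cisplatin against control A and control B, and 19 for control A against control B.

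The share of FPKM was 2.35% with etoposide, 2.18% with imatinib, 2.68% with cisplatin, 4.32% in control A and 2.88% in control B when loci under 500 bp were part of the total, since those took 74.2% to 96.5% of a library. For loci of at least 1000 bp it was 24.2%, 22.9%, 23.2%, 27.9% and 23.3% in the same order of groups. With 100 members it was 17.8%, 16.9%, 16.8%, 20.6% and 16.6%, and with 200 members 26.9%, 25.7%, 25.6%, 30.5% and 25.7%, in that order. Members chosen by the mean shared 141 of 150 with the list. Without 1 library in turn, 140 to 147 members stayed, and the shares of the lists so chosen ranged over 22.3% to 23.2% with etoposide, 21.1% to 22.0% with imatinib, 21.0% to 22.0% with cisplatin, 24.5% to 27.3% in control A and 20.4% to 22.0% in control B. Of 260 values of named members under alternatives, 202 stayed on their side of the threshold, 56 lost the call and 2 gained it, and 0 called values changed direction; where a call ended, the cause was not tested. Depth is unknown and limits all of these values to an extent that cannot be given.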
